A study of Mus musculus with 20 samples.

Results

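The CCN genes encode a small family of secreted proteins that bind growth factors, integrins and matrix proteins at the cell surface. The family was taken by gene symbol, which gave 5 of the 24347 gene rows in each table: Cyr61, Ctgf, Nov, Wisp1 and Wisp2, the older symbols of Ccn1 to Ccn5. All 5 passed the filter on low values, which 12938 genes passed. The family was followed in 12 RNA libraries of sorted mouse bone marrow stromal cells, 3 in each of 4 groups. CAR ko and CAR wt are CXCL12-abundant reticular cells, gated as CD45-CD31-Lin-PDGFRα+Sca1-. PaS ko and PaS wt are mesenchymal progenitors with the same gates but Sca1+. The ko groups have the genotype Ebf1fl/fl;Prx1+/cre and the wt groups Ebf1+/+;Prx1+/cre, so the controls carry the cre as well, and all are C57BL/6 mice whose age and sex the labels do not give. Ebf1 is a transcription factor of B cells and mesenchyme. The Prx1 cre acts in limb bud mesenchyme, so it is not restricted to either sorted population.

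CCN proteins are built from modules that resemble an IGF-binding domain, a von Willebrand factor type C domain, a thrombospondin repeat and a C-terminal cystine knot. Cyr61 and Ctgf are induced within minutes by serum, mechanical load and TGF-beta, and are standard readouts of the YAP/TAZ-TEAD pathway. Nov often acts against Ctgf and was described as a regulator of Notch and BMP signalling and of blood stem cells. Wisp1 was found as a gene induced by Wnt1 and is made by cells of the osteoblast lineage. Wisp2 lacks the C-terminal cystine knot and is known from preadipocytes and fibroblasts.

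In the RefSeq annotation of GRCm38.p6, Cyr61 lies on chromosome 3 from 145646971 to 145649985 and Ctgf on chromosome 10 from 24595442 to 24598683. Nov lies on chromosome 15 from 54745910 to 54753762. Wisp1 lies on the same chromosome from 66891369 to 66923201, with 12.14 Mb between them. Wisp2 lies on chromosome 2 from 163820752 to 163833146. Of the 5 genes, Cyr61 matched an entry of the RefSeq promoter table, and Ctgf, Nov, Wisp1 and Wisp2 did not. The 250 bases before the Cyr61 start site (GRCm38.p6, chr3:145649986-145650235, minus strand) are shown because Cyr61 had the highest level of the family in every library and is a classic target of TEAD and of cAMP-response factors.
Cyr61 promoter: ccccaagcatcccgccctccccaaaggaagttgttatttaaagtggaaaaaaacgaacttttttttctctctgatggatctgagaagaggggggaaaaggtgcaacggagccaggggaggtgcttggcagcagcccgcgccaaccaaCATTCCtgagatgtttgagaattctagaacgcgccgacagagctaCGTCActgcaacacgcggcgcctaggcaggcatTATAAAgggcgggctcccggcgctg
Capitals mark, from left to right, a match to the TEAD motif GGAATG on the other strand, a match to the cAMP-response half-site TGACG on the other strand, and the TATA motif TATAAA. Their first bases lie at -103, -58 and -25 from the start site. Searched on both strands in the same 250 bases of 32851 promoter windows, these motifs were found in 12.6%, 17.8% and 12.4% of windows. The EBF motif CCCNNGGG, found in 11.8% of windows, the AP-1 motif TGANTCA, found in 6.7%, the full cAMP-response site TGACGTCA, found in 1.5%, and the TCF/LEF motif CTTTGA, found in 13.8%, had no match in the Cyr61 window.

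Values are FPKM, a level per transcript length, so they can be set side by side between genes. A library summed to between 491801 and 526074 FPKM, and its depth relative to the others, read from low values that step by single reads, was between 0.887 and 1.12. PaS wt replicate 1 stood apart, with 24.6% of genes listed at 0, where the remaining 11 libraries had 33.3% to 37%. Without it, 3 members were still called between PaS ko and PaS wt. Ebf1 itself was not lower in either ko group, and in CAR ko it was called higher (log2 fold change 0.25, adjusted p = 0.04). Its levels were 57.5 ± 1.99 FPKM in CAR ko and 48.1 ± 1.10 FPKM in CAR wt, and 62.5 ± 2.18 FPKM in PaS ko and 55.9 ± 5.89 FPKM in PaS wt (SD, n = 3 each). Whole-gene FPKM can include exons outside the deleted part, so this does not check the labels, and ko and wt are used throughout as the labels give them. The sort labels held for Ly6a, which encodes Sca1, at 4.03 to 12.3 FPKM in CAR libraries and 1524 to 2176 FPKM in PaS libraries, and for Cxcl12, at 12486 to 14684 FPKM in CAR libraries and 4127 to 4835 FPKM in PaS libraries. A list of 22 blood cell markers held 1.29% to 1.36% of all FPKM in CAR ko and 2.69% to 3.09% in CAR wt, and 2.18% to 2.29% in PaS ko and 5.09% to 5.34% in PaS wt.

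Individual CCN genes differed between ko and wt libraries in both directions. Wisp1 was higher and Wisp2 lower in the ko groups of both populations. Nov was lower in PaS ko and slightly higher in CAR ko cells. Cyr61 was called in neither population, and Ctgf only in CAR cells, by a small amount. In CAR cells 3 members rose and 1 fell, where 12.3% of all tested genes were called, 6.51% higher and 5.74% lower. In PaS cells 1 member rose and 2 fell, where 7.44% of all tested genes were called, 3.41% higher and 4.03% lower. A gene was called at a limma adjusted p under 0.05 over all 12938 tested genes. The same shares of all tested genes belong beside the ko against wt counts of list and marker genes given below. In bulk RNA a smaller number of cells of one type and less RNA per cell cannot be told apart.

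**Figure D1:**
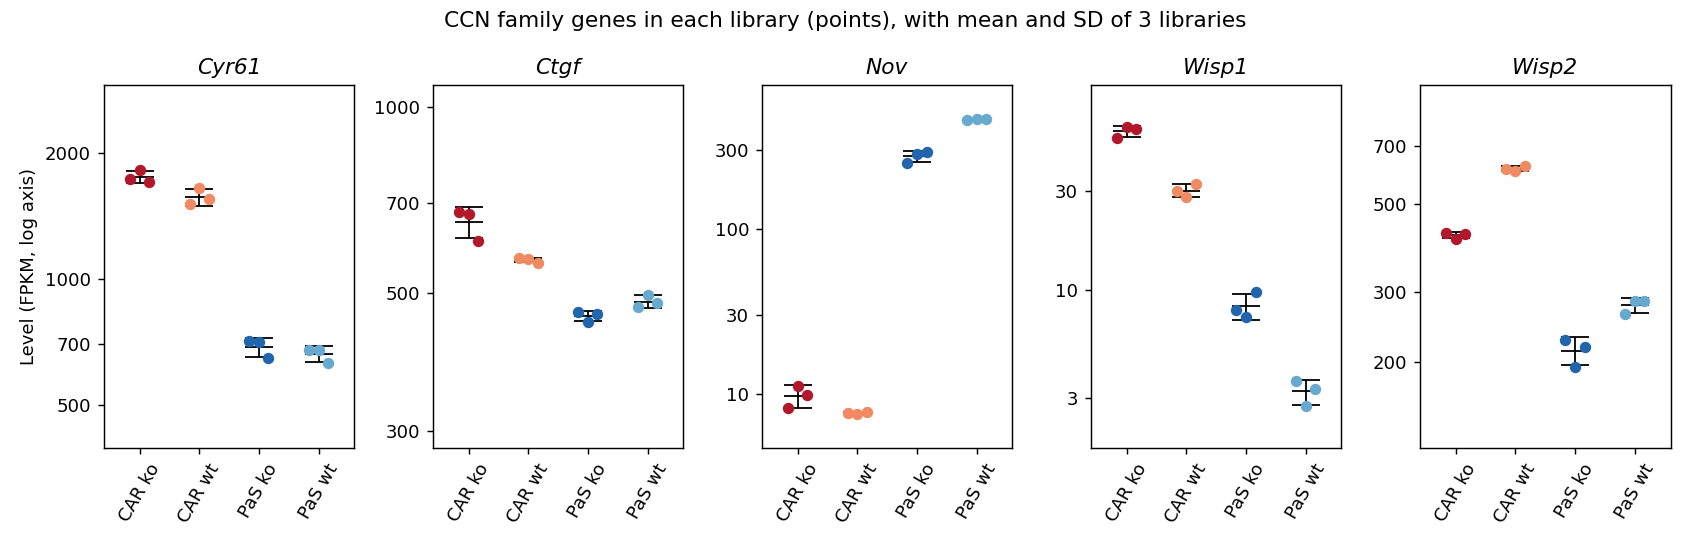
Level of each CCN gene in FPKM on a log axis in the 12 libraries. Points are libraries, and horizontal marks with bars are the mean and SD of 3 libraries. Nov is the member that stands higher in PaS than in CAR libraries, and Wisp1 is higher in ko than in wt libraries of both populations.

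Cyr61, an integrin ligand, was the most abundant member in every library. It had 1732, 1821 and 1710 FPKM in CAR ko, against 1509, 1653 and 1554 FPKM in CAR wt libraries. The lowest ko library lay above the highest wt library, and the log2 fold change was 0.16 (SE 0.06, adjusted p = 0.091). This difference passed the threshold under quantile normalization and with library weights (adjusted p = 0.045 for both). PaS libraries had less Cyr61, with 712, 706 and 646 FPKM in PaS ko and 678, 679 and 631 FPKM in PaS wt. These groups overlapped, and the 95% interval of the log2 fold change ran from -0.07 to 0.18 (adjusted p = 0.68).

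Ctgf, connective tissue growth factor, was more even across the 4 groups. CAR ko libraries had 677, 670 and 608 FPKM and CAR wt libraries 569, 567 and 560 FPKM. Every ko library was above every wt library, and Ctgf rose by 0.20 on the log2 scale (SE 0.05, limma adjusted p = 0.019). The call was lost when the CAR groups were fitted alone (adjusted p = 0.06) and without CAR ko replicate 1 or 2 or CAR wt replicate 2 or 3 (adjusted p of 0.051 to 0.082). PaS ko libraries had 467, 450 and 464 FPKM, just below the 475, 497 and 482 FPKM of PaS wt libraries. The groups did not overlap, and the difference was not called, with a log2 fold change of -0.08 (SE 0.05, 95% interval -0.19 to 0.04, adjusted p = 0.49).

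The immediate early genes, which cell isolation induces and to which Cyr61 and Ctgf belong, were read beside these values. Of 20 genes on that list, 3 were higher and 1 lower in CAR ko, and 0 were higher and 5 lower in PaS ko. The 5 became 3 without a filter and 3 under quantile normalization. Of all tested genes, 6.51% were called higher and 5.74% lower in CAR ko, and 3.41% higher and 4.03% lower in PaS ko. Fos had 3639 ± 153 FPKM in CAR ko and 3208 ± 110 FPKM in CAR wt (log2 fold change 0.18, adjusted p = 0.031), and 2705 ± 85.6 FPKM in PaS ko and 2835 ± 59.6 FPKM in PaS wt (adjusted p = 0.53). Atf3, a stress-induced transcription factor, rose by 0.55 in CAR ko (adjusted p = 5.3e-05), and Egr1 fell by 0.27 in PaS ko (adjusted p = 0.008). The part of isolation-induced transcription in the Cyr61 and Ctgf values was not tested.

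Nov divided the 2 populations. PaS ko libraries had 250, 285 and 293 FPKM, against 456, 467 and 462 FPKM in PaS wt libraries. All ko libraries were well below all wt libraries, and the ko mean was 0.598 times the wt mean (log2 fold change -0.74 with an SE of 0.09, adjusted p = 6.9e-05). In CAR cells, where Nov was low, ko libraries had 8.25, 11.3 and 9.91 FPKM and wt libraries 7.70, 7.54 and 7.78 FPKM. The groups did not overlap, and Nov rose by 0.31 on the log2 scale (SE 0.09, limma adjusted p = 0.037). That call was lost with a pseudocount of 5, without a filter, under quantile normalization, with the CAR groups fitted alone, on leaving out any of the CAR libraries except ko replicate 1, and without PaS wt replicate 1 or 3 (adjusted p of 0.051 to 0.18). Beside the fall of Nov in PaS ko, 5 of 10 PaS and fibroblast markers were lower and 0 higher. The summed level of these markers was 3854 to 4154 FPKM in PaS ko and 4684 to 5396 FPKM in PaS wt, and 109 to 115 FPKM in CAR ko and 94.4 to 95.4 FPKM in CAR wt, where Thy1 was under 1 FPKM. Their part in the Nov differences was not tested.

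Wisp1, the Wnt1-inducible member, showed the largest proportional change of the 5 in each population. CAR ko libraries had 54.0, 60.7 and 59.5 FPKM, and CAR wt libraries had 29.97, 27.85 and 32.28 FPKM. Every ko library was above every wt library, with a ratio of means of 1.93 (log2 fold change 0.93 with an SE of 0.11, adjusted p = 6.6e-05). PaS ko libraries had 7.99, 7.36 and 9.71 FPKM, and PaS wt libraries 3.64, 2.75 and 3.31 FPKM. Again no library overlapped, with a ratio of means of 2.58 (log2 fold change 1.14 with an SE of 0.11, adjusted p = 9e-06). The PaS level in ko stayed below the CAR level in wt. Osteoblast markers moved with Wisp1: of 11, 10 were higher in CAR ko and 7 in PaS ko, and 0 were lower in either. Their summed level was 19745 to 27168 FPKM in CAR ko and 11924 to 13937 FPKM in CAR wt, and 2046 to 2200 FPKM in PaS ko and 1557 to 1686 FPKM in PaS wt, where Bglap3 was under 1 FPKM in both. Of 11 tested chondrocyte markers, 5 were higher and 4 lower in CAR ko, and 8 were higher and 1 lower in PaS ko. All 12 listed chondrocyte markers, tested or not, summed to 1845 to 1921 FPKM in CAR ko and 1297 to 1412 FPKM in CAR wt. In PaS cells the sum was lower in ko, at 2706 to 2955 FPKM in PaS ko and 3187 to 3447 FPKM in PaS wt. The part of either marker list in the Wisp1 difference was not tested.

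Wisp2, the member without a C-terminal knot, moved the other way. CAR ko libraries had 423, 408 and 420 FPKM, and CAR wt libraries had 610, 605 and 622 FPKM. The replicates of each group were tight and far apart from the other group, and Wisp2 fell by 0.55 on the log2 scale (SE 0.06, adjusted p = 2.2e-05). PaS ko libraries had 228, 194 and 218 FPKM, below the 263, 285 and 285 FPKM of PaS wt libraries. This was a fall of 0.38 on the log2 scale (SE 0.06, adjusted p = 0.00077). Of 11 CAR cell markers, 4 were lower and 0 higher in CAR ko, and their summed levels overlapped, at 19375 to 21962 FPKM in CAR ko and 20825 to 21885 FPKM in CAR wt. Most of that sum was Cxcl12, at 13299 ± 1205 FPKM in CAR ko and 13251 ± 377 FPKM in CAR wt. Adipoq, on the same list, had 1444 to 1463 FPKM in CAR ko and 1775 to 1904 FPKM in CAR wt, while Lepr overlapped. In PaS ko 1 of the 11 markers was higher and 1 lower. The summed level of the 11 was 6604 to 7619 FPKM in PaS ko and 6730 to 6898 FPKM in PaS wt. The part of these markers in the Wisp2 difference was not tested.

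The ko and wt libraries did not overlap for 5 of the 5 members in CAR cells and 4 of the 5 in PaS cells, where 29.9% and 23.4% of all tested genes did not overlap. An exact two-sided permutation test of the FPKM values gave p = 0.1 for each of those members, which with 3 libraries on either side is the lowest p it can reach. For Cyr61 in PaS cells the exact permutation p was 0.4.

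**Figure D2:**
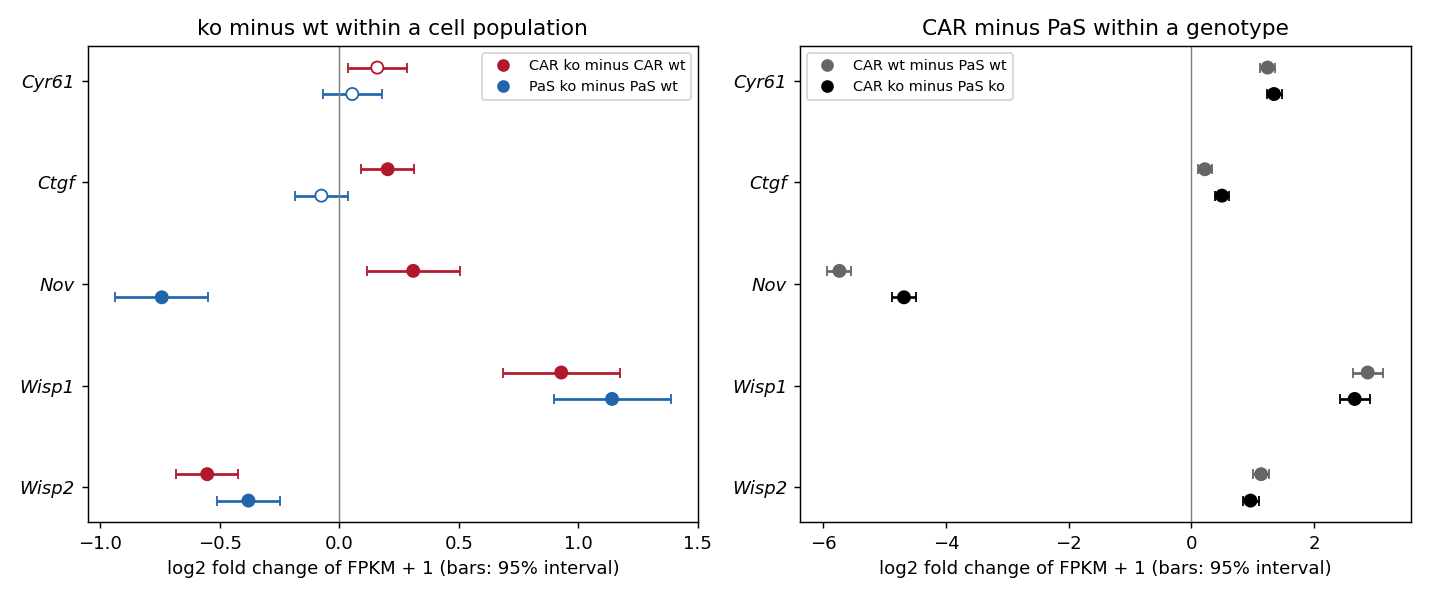
Log2 fold changes of FPKM + 1 with 95% intervals for the 5 members, with ko minus wt within each population at left and CAR minus PaS within each genotype at right. Filled points passed an adjusted p of 0.05 and open points did not. The ko effects on Wisp1 and Wisp2 have the same sign in both populations, and those on Nov have opposite signs.

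The test of the difference between the 2 genotype effects asked which members responded differently in CAR and PaS cells. It called 2 of the 5 members, Nov and Ctgf, where 6.58% of all tested genes were called, 3.32% with a higher and 3.26% with a lower effect in CAR cells. The effect on Nov was higher in CAR than in PaS cells by 1.05 on the log2 scale (SE 0.13, adjusted p = 0.00013). The corresponding value for Ctgf was 0.28 (SE 0.07, adjusted p = 0.035). Of the 20 immediate early genes, 3 had a higher and 0 a lower effect in CAR cells. Their median difference was 0.26, beside 0.02 for all tested genes, and their part in the Ctgf difference was not tested. The Ctgf call was lost without a filter (adjusted p = 0.053), with library weights (adjusted p = 0.051) and without any single library other than CAR ko replicate 3 (adjusted p of 0.054 to 0.092). For Wisp1 the difference was -0.21 (95% interval -0.56 to 0.13, adjusted p = 0.52), for Wisp2 -0.17 (95% interval -0.36 to 0.01, adjusted p = 0.28) and for Cyr61 0.10 (95% interval -0.07 to 0.28, adjusted p = 0.53). Intervals of this width do not show that these members respond alike.

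The comparisons of CAR with PaS cells use the same libraries as the genotype comparisons. All 5 differed between CAR wt and PaS wt cells, and 4 of them were higher in CAR wt. Of all tested genes, 43.2% were called in this comparison, 20.5% higher and 22.7% lower. Nov was the exception, with 7.67 ± 0.125 FPKM in CAR wt and 462 ± 5.62 FPKM in PaS wt. Its mean was 60.2 times as high in PaS wt as in CAR wt (log2 fold change -5.74, SE 0.09, adjusted p = 3.3e-16), and it ranked 12 among all tested genes by absolute change. The mean Wisp1 level was 30.03 ± 2.22 FPKM in CAR wt and 3.23 ± 0.449 FPKM in PaS wt, a ratio of means of 9.29 (log2 fold change 2.88, SE 0.11, adjusted p = 9.4e-12). Cyr61 was at 1572 ± 73.7 FPKM in CAR wt and 663 ± 27.6 FPKM in PaS wt, a ratio of 2.37 (adjusted p = 5.7e-11). The ratio for Wisp2 was 2.21, from 612 ± 8.57 FPKM in CAR wt and 278 ± 12.3 FPKM in PaS wt (adjusted p = 3.5e-10). Ctgf differed least, with 566 ± 4.70 FPKM in CAR wt and 485 ± 11.4 FPKM in PaS wt, a ratio of 1.17 (adjusted p = 0.0028).

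The same 4 members were higher in CAR than in PaS cells among ko libraries, where 36.9% of all tested genes were called, 17% higher and 19.8% lower. Between CAR ko and PaS ko, Nov was lower in CAR ko by 4.68 on the log2 scale, and its mean was 28.1 times as high in PaS ko. Ctgf had a log2 fold change of 0.50 between CAR ko and PaS ko (SE 0.05, adjusted p = 1.2e-06), beside 0.22 between CAR wt and PaS wt. Wisp1 had 2.66, Cyr61 1.35 and Wisp2 0.97 in that ko comparison. Of 20 immediate early genes, 14 were higher and 3 lower in CAR ko than in PaS ko, with a median of 0.27. Between CAR wt and PaS wt 8 were higher and 4 lower, with a median of 0.06. Of all tested genes 20.5% were called higher and 22.7% lower in that wt comparison. The part of the immediate early genes in the Cyr61 and Ctgf differences was not tested. In both genotypes no CAR library overlapped a PaS library for any of the 5 members, as was so for 51.2% of all tested genes in wt and 47.9% in ko.

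Listed by mean level, Cyr61 and Wisp1 stood in the order CAR ko, CAR wt, PaS ko and PaS wt. Ctgf had PaS wt above PaS ko, and Wisp2 had CAR wt first and PaS ko last. Nov had the order PaS wt, PaS ko, CAR ko and CAR wt. Among these 5 orders, the libraries of neighbouring groups overlapped for Cyr61 in PaS ko and PaS wt and in no other case. Of all tested genes, 29.9% did not overlap between CAR ko and CAR wt and 23.4% between PaS ko and PaS wt. Between CAR and PaS the shares were 51.2% in wt and 47.9% in ko. No such share was computed for neighbours that differ in both population and genotype. Wisp3, the sixth gene of the family and not among the 5 members, stayed under 1 FPKM in all 12 libraries and failed the filter.

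**Figure D3:**
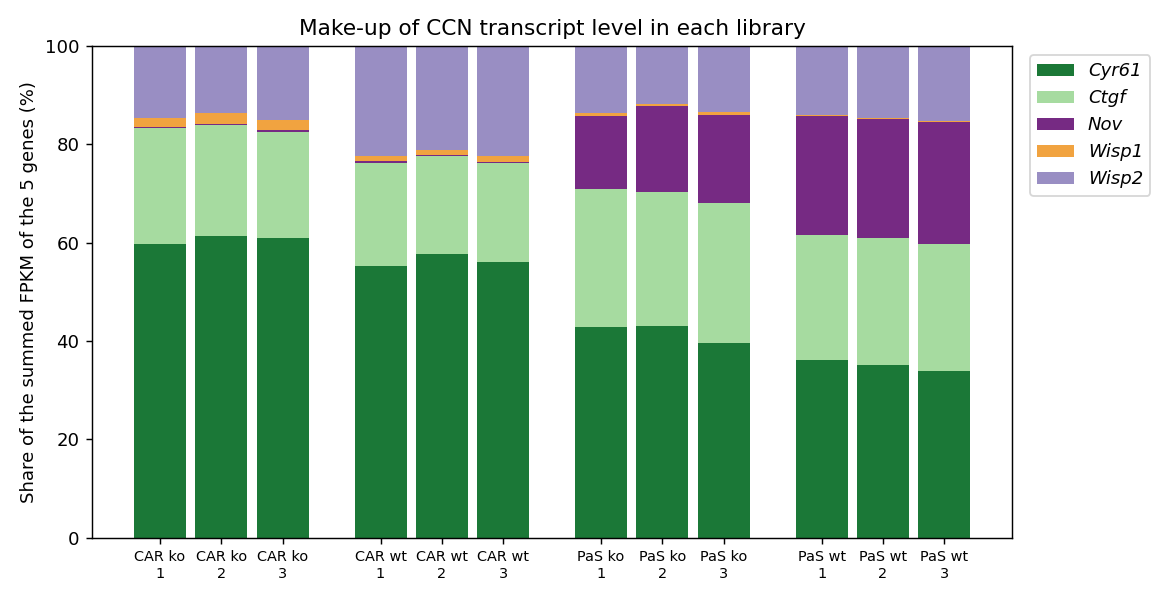
Share of each CCN gene in the summed FPKM of the 5 genes, 1 bar for each library. Nov holds 15.0% to 24.8% of the bar in PaS libraries and under 1% in CAR libraries.

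Cyr61, Ctgf and Wisp2 were abundant in every group, and the family differed in its make-up. By mean level, Nov in CAR wt stood above 46.4% of tested genes and Wisp1 in PaS wt above 24.4%. The 5 genes summed to 2891 ± 81.2 FPKM in CAR ko and 2788 ± 68.0 FPKM in CAR wt, and to 1646 ± 17.4 FPKM in PaS ko and 1890 ± 35.6 FPKM in PaS wt. Of this sum, Cyr61 held 60.7% ± 0.759 in CAR ko and 56.4% ± 1.26 in CAR wt, and 41.8% ± 1.87 in PaS ko and 35.1% ± 1.15 in PaS wt. Wisp2 held 14.4% ± 0.637 in CAR ko and 21.98% ± 0.720 in CAR wt, and 12.96% ± 1.00 in PaS ko and 14.7% ± 0.624 in PaS wt. Nov held 16.8% ± 1.54 in PaS ko and 24.4% ± 0.321 in PaS wt, and 0.339% and 0.275% in CAR ko and CAR wt. Wisp1 was the smallest part in PaS cells, with 0.508% in PaS ko and 0.171% in PaS wt. The level of Wisp1 relative to Wisp2 within a library was 0.139 ± 0.0107 in CAR ko and 0.0490 ± 0.0029 in CAR wt, and 0.0391 ± 0.0048 in PaS ko and 0.0117 ± 0.0021 in PaS wt. Cyr61 relative to Ctgf changed less, at 2.70 ± 0.129 in CAR ko and 2.78 ± 0.131 in CAR wt, and at 1.496 ± 0.0906 in PaS ko and 1.37 ± 0.0603 in PaS wt. These shares and ratios are descriptions, with n = 3 in each group.

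Lists of genes tied to CCN function were set beside the members. Of all tested genes, 6.51% were called higher and 5.74% lower in CAR ko, and 3.41% higher and 4.03% lower in PaS ko. The YAP/TAZ-TEAD targets other than Cyr61 and Ctgf had 20 tested genes, of which 3 rose and 2 fell in CAR ko, with a median log2 fold change of 0.04 beside 0.01 for all tested genes. In PaS ko 1 rose and 1 fell, with a median of -0.06 beside 0.00. Igfbp3, an IGF-binding protein, fell to 131 ± 13.99 FPKM in CAR ko, against 276 ± 6.73 FPKM in CAR wt (adjusted p = 2.1e-07). Thbs1, a thrombospondin with a module that CCN proteins share, had 211 ± 14.8 FPKM in CAR ko and 112 ± 6.93 FPKM in CAR wt (adjusted p = 9.8e-07). Nt5e, the ecto-enzyme CD73, rose in both, by 0.83 in CAR ko and 0.80 in PaS ko. The receptor kinase Axl fell in both, by 0.32 in CAR ko and 0.62 in PaS ko. Among 18 tested components of the Hippo pathway, 1 rose and 0 fell in CAR ko, where 6.51% of all tested genes rose. The gene that rose was Wwtr1, which encodes TAZ, with 29.3 ± 1.66 FPKM in CAR ko and 23.8 ± 1.62 FPKM in CAR wt (adjusted p = 0.031). In PaS ko 0 rose and 0 fell. Wwtr1 was not called there (adjusted p = 0.25, the smallest of the list), with 47.6 ± 2.86 FPKM in PaS ko and 41.9 ± 3.09 FPKM in PaS wt.

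Receptors and co-receptors of CCN proteins had 16 tested genes. In CAR ko 3 rose and 4 fell, with a median of 0.11. Itgb5, a chain of an integrin that binds CCN proteins, rose to 127 ± 1.33 FPKM in CAR ko, against 89.7 ± 0.388 FPKM in CAR wt (adjusted p = 2.9e-05). The heparan sulfate co-receptor Sdc4 rose by 0.45 and the integrin chain Itgb1 by 0.21. In PaS ko 0 rose and 5 fell, with a median of -0.16, among them Itgb3, with 8.17 ± 0.272 FPKM in PaS ko and 15.6 ± 1.35 FPKM in PaS wt (adjusted p = 0.0011). Without a filter 1 receptor rose in PaS ko. Itga6, a laminin receptor chain, fell in both populations, with log2 fold changes of -0.81 in CAR ko and -0.75 in PaS ko. Itgb2, Itgam and Itga2b, integrin chains of leukocytes and platelets, also fell in both. Their log2 fold changes were -1.23 in CAR ko and -0.99 in PaS ko for Itgb2, -0.98 in CAR ko and -1.64 in PaS ko for Itgam, and -1.381 in CAR ko and -1.15 in PaS ko for Itga2b. Beside them, 18 of 22 blood cell markers were lower and 0 higher in CAR ko, and 8 lower and 3 higher in PaS ko. The part of blood cells in the integrin differences, those of Itgb3 and Itga6 included, was not tested.

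**Figure D4:**
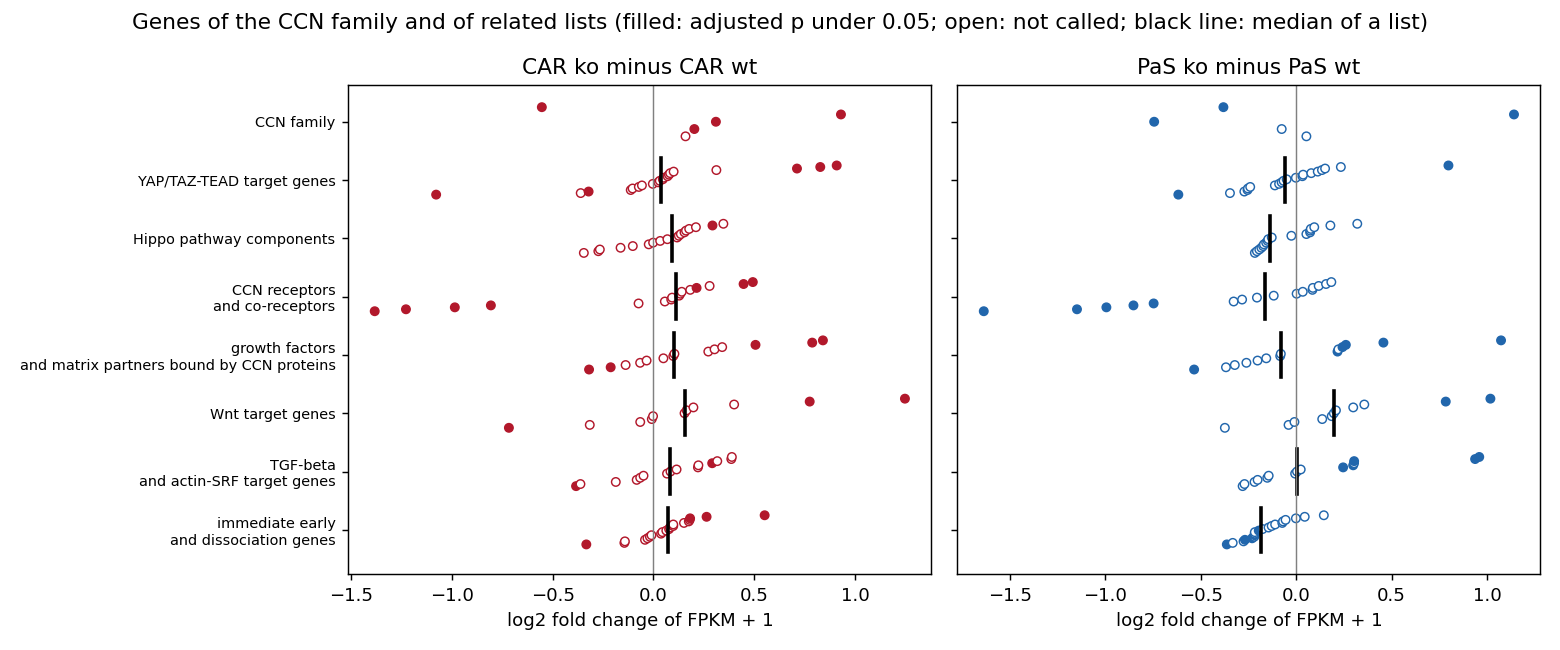
Log2 fold changes of FPKM + 1 for the CCN members and the tested genes of 7 related lists, in CAR cells at left and PaS cells at right. Filled points passed an adjusted p of 0.05, open points did not, and black lines are list medians. Wisp1 and Wisp2 lie at the outer ends of the CAR row, and Wisp1 and Nov at those of the PaS row.

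Of the 14 growth factors and matrix partners that CCN proteins bind, 3 rose and 2 fell in CAR ko (median 0.10), and 5 rose and 1 fell in PaS ko (median -0.08). Without a filter the PaS counts were 3 and 0. Fn1, fibronectin, had 103 ± 17.5 FPKM in CAR ko and 56.9 ± 9.96 FPKM in CAR wt (adjusted p = 0.00021), and 823 ± 11.4 FPKM in PaS ko and 1192 ± 56.0 FPKM in PaS wt (adjusted p = 0.0098). Its genotype effects differed by 1.37 (adjusted p = 0.00013). Dcn, decorin, which binds Ctgf, rose by 0.79 in CAR ko and 0.24 in PaS ko. Bmp2 rose by 0.51 in CAR ko. Bmp4, a growth factor bound by Ctgf, had 79.8 ± 1.83 FPKM in CAR ko and 92.7 ± 3.5999 FPKM in CAR wt (adjusted p = 0.042), and 45.6 ± 2.31 FPKM in PaS ko and 37.9 ± 1.00 FPKM in PaS wt (adjusted p = 0.019).

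Among 11 tested Wnt targets, 2 rose and 1 fell in CAR ko (median 0.15), and 2 rose and 0 fell in PaS ko (median 0.20). With a filter of 5 FPKM, which removes low genes, 1 rose and 0 fell in CAR ko and 1 rose in PaS ko, and with a pseudocount of 5, 1 rose in PaS ko. The Wnt antagonist Dkk1 had 14.6 ± 0.628 FPKM in CAR ko and 5.62 ± 0.968 FPKM in CAR wt (adjusted p = 0.0002). Lgr5, a receptor for R-spondins, had 3.95 ± 0.135 FPKM in PaS ko and 1.45 ± 0.195 FPKM in PaS wt (adjusted p = 0.0004). The transcription factor Lef1 fell by 0.72 in CAR ko (adjusted p = 0.008). Of 15 tested TGF-beta and actin-SRF targets, 1 rose and 1 fell in CAR ko (median 0.08), and 5 rose and 0 fell in PaS ko (median 0.00). Tpm1, a tropomyosin of actin filaments, rose in both populations, by 0.29 in CAR ko and 0.25 in PaS ko, and Tagln, an actin-binding protein, rose by 0.96 in PaS ko (adjusted p = 0.00053). Of 10 pericyte and smooth muscle markers, a list that shares Acta2 and Tagln with this one, 3 were higher and 0 lower in PaS ko. Their summed level was 64.7 to 70.5 FPKM in PaS ko and 47.8 to 51.1 FPKM in PaS wt, and their part in the rise was not tested.

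Between CAR wt and PaS wt the partners of the family also differed. Of all tested genes, 20.5% were called higher and 22.7% lower in CAR wt. Of the 16 receptors, 2 were higher and 11 lower in CAR wt, with a median of -0.63 beside 0.00 for all tested genes. With a filter of 5 FPKM, 1 was higher. Fgfr2 was the most abundant gene of the 2 that were higher, with 122 ± 2.51 FPKM in CAR wt and 36.5 ± 1.80 FPKM in PaS wt. The 11 lower genes included the leukocyte and platelet chains Itgb2, Itgam and Itga2b, with log2 fold changes of -1.04, -1.14 and -0.84. Of 22 blood cell markers, 10 were lower and 3 higher in CAR wt. The part of blood cells in these receptor differences was not tested. Lrp1, an endocytic receptor that binds Ctgf, was at 31.7 ± 3.47 FPKM in CAR wt and 86.4 ± 0.506 FPKM in PaS wt, and Itga5, the fibronectin receptor chain, 13.2 ± 0.840 FPKM in CAR wt and 38.8 ± 2.76 FPKM in PaS wt. Of the 20 YAP/TAZ-TEAD targets, 8 were higher and 6 lower in CAR wt, beside 20.5% and 22.7% of all tested genes. Amotl2, which encodes an angiomotin, was higher, at 69.0 ± 4.53 FPKM in CAR wt and 34.8 ± 3.46 FPKM in PaS wt, while Axl was at 21.8 ± 2.10 FPKM in CAR wt and 227 ± 4.44 FPKM in PaS wt.

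The tested genes whose log2 levels followed each member most closely over the 12 libraries were listed by Pearson's r, as a description in which the libraries of a group share their population and genotype. For Nov they were Cd248, Fbln2, Adamtsl4, Ssc5d and Mfap5, with r of 0.998 to 0.999. Cd248, a surface glycoprotein of fibroblasts, had 6.49 and 4.96 FPKM as means of CAR ko and CAR wt, and 209 and 332 FPKM as means of PaS ko and PaS wt. Nearest to Wisp1 were Mmp13, Prss35, Hpgd, Slc36a2 and Lox, with r of 0.994 to 0.996. Mmp13, a collagenase of bone, averaged 2085 FPKM in CAR ko and 1294 FPKM in CAR wt, and 506 FPKM in PaS ko and 275 FPKM in PaS wt. Kcnip3, Gpr50, Limd2, Cbln1 and C2 came closest to Wisp2, with r of 0.985 to 0.995. Cyr61 was followed by Cdh2, Ptx3, Ibsp, Tnc and Fgfr2, with r of 0.995 to 0.998, and Ctgf by Mef2c, Fam20c, Thbs1, Phex and Fos, with r of 0.967 to 0.9745. Between members, r over the same libraries was 0.93 for Cyr61 and Ctgf, 0.71 for Wisp1 and Wisp2, and -0.99 for Cyr61 and Nov.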

How the data were processed

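RNA of sorted cells was enriched with oligo dT and made into SMART-Seq v4 libraries, per the labels' protocols. The authors deposited FPKM, 1 table per library. The submitters' processing notes name TopHat2 2.0.14, Cufflinks 2.2.1, Cuffnorm 2.2.1 and mm10. The use of strand is not given in the sources used here, so overlapping genes cannot be told apart. The 8 ATAC-seq samples were not analysed here. The files hold no read counts, so the absolute depth is unknown. Of 4685 genes that stay under 3 FPKM, 738 stepped by whole reads within 0.03. On these genes replicates differed by a chi-square per degree of freedom of 3.54 to 7.55 and were kept as separate libraries. Nothing in the labels says whether replicates came from separate animals, so the p-values may reflect technical spread alone.

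Genes with at least 1 FPKM in at least 3 libraries were tested on log2(FPKM + 1), which understates changes of low genes. One linear model of all 4 groups was fitted (limma 3.58.1, R 4.3.3), with a variance trend, 8 residual and 6.95 prior degrees of freedom. Tests were two-sided, with Benjamini-Hochberg adjustment over 12938 genes at 0.05. Every adjusted p comes from this model unless another setting is named beside it, in which case the model was refitted and adjusted over the genes of that setting, and ± is the SD of 3 libraries. The scripts were tested on simulated data. Figures were drawn with matplotlib 3.10.9.

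The members and lists were chosen with earlier results of these data known. Named genes were the CCN genes, Ebf1, up to 4 called genes per list and contrast with the smallest p, and the 5 genes nearest to each member by r, of which not all are described. Genes nearest by values centred on group means are not described. Some values fall outside this rule and were chosen after they were seen. They are Itgb1 and Amotl2 in any contrast, and Axl, Itga6, Itgam and Bmp4 in CAR ko. Itga2b, Bmp4, Fos and Wwtr1 in PaS ko and Itgb2, Itgam and Itga2b between CAR wt and PaS wt are the others. Ly6a, Cxcl12, Adipoq, Lepr, Thy1 and Bglap3 come from the marker lists. The settings tried were pseudocounts of 0.1 and 5, filters of 0 and 5 FPKM, scaling by median ratios, quantiles, weights per library, zeros set to missing where a replicate had 100 FPKM or more, the compared groups alone, the replicate number as a block, and each library left out.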

Additional observations from a re-analysis of the deposited data

Results flagged for a closer look

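Among the 5 members, 2 had ko effects that differed between CAR and PaS cells in the test of the difference itself. That test called 6.58% of all tested genes. The effect on Nov was higher in CAR cells by 1.05 on the log2 scale (adjusted p = 0.00013), with 3 of 3 ko libraries above all wt libraries in CAR cells and 3 of 3 below them in PaS cells. Left-out libraries gave 0.96 to 1.16 for this difference. The rise of Nov within CAR cells lost its call under 4 of 10 other settings and without 7 of the 12 libraries in turn. For Ctgf the difference was 0.28 (adjusted p = 0.035), and the call was lost without 11 of the 12 libraries in turn. Again 3 of 3 ko libraries lay above in CAR cells and 3 of 3 below in PaS cells, where Ctgf was not called (adjusted p = 0.49). Of all tested genes, 29.9% had no overlap of ko and wt libraries in CAR cells and 23.4% in PaS cells. The 20 immediate early genes had a median difference of effects of 0.26, beside 0.02 for all tested genes. Their part in the Ctgf difference was not tested.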

How the results depend on the processing

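The number of members called in CAR ko against CAR wt, 4, was 2 with the CAR groups fitted alone. It ran from 2 to 4 without each library in turn. Library weights added Cyr61 to the called members, and a pseudocount of 5 or no filter removed Nov. Quantile normalization added Cyr61 and removed Nov. For the difference of genotype effects the count of 2 became 1 without a filter and 1 with library weights, and ran from 1 to 2 without each library. The counts of 3 in PaS ko against PaS wt and of 5 in both CAR against PaS comparisons held under every alternative run. The Wisp1 difference of effects, not called, changed sign to 0.15 with a pseudocount of 5 (adjusted p = 0.53). In the fit with the replicate block, 4, 3, 2, 5 and 5 members were called in the 5 contrasts, as without it. Same-numbered libraries correlated in their deviations from group means by -0.041 to 0.108. Most libraries correlated best with a library of another number, so they were not treated as pairs. All genes called without each library numbered 1129 to 1695 in CAR ko against CAR wt and 748 to 988 in PaS ko against PaS wt. Of 490 list counts under other settings, 472 stayed within 1.5 times and 18 did not, most often with a filter of 5 FPKM. With 3 libraries a group and no read counts, small changes such as those of Cyr61 and Ctgf are at the limit of what these data resolve.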

Other observations

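Wisp3 was listed at 0 in replicate 2 of all 4 groups and between 0.0752 and 0.996 FPKM in the other libraries. The same replicate had the highest share of genes listed at 0 within its group, at 36.0% in CAR ko, 37% in CAR wt, 35.5% in PaS ko and 36.2% in PaS wt. Its relative depths of 0.955, 1.07, 1.12 and 1.05 in CAR ko, CAR wt, PaS ko and PaS wt were not the lowest of their groups except in CAR ko. Whether the replicate number marks a batch is not in the labels.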
